A study of Felis catus with 2 samples.

Results

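The crystallins are the main soluble proteins of the lens, and 10 of their genes were listed in the RNA-seq data from the anterior segment of the cat eye. They were found by an exact match of the gene name among 32065 Cufflinks loci, of which 21462 carried a name. Each of the 10 names stood on 1 row. The members are 2 alpha crystallins (CRYAA and CRYAB), 5 beta crystallins (CRYBA1, CRYBA4, CRYBB1, CRYBB2 and CRYBB3) and 3 gamma crystallins (CRYGS, CRYGB and CRYGD).

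Polyadenylated RNA was sequenced from 1 cat affected by primary congenital glaucoma (PCG) and from 1 unrelated normal cat, both 2 months old. Affected cats of this pedigree carry a recessive mutation in LTBP2. The piece of tissue held the iridocorneal angle, between iris and cornea, together with ciliary body, sclera and trabecular meshwork. The lens is not named in that dissection. With 1 library per condition no spread between cats could be measured, so no difference was tested and every comparison describes these 2 libraries only.

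Lens fibre cells fill themselves with crystallins and then lose their nuclei. The alpha crystallins are small heat shock proteins that keep other proteins in solution, and CRYAB is also made outside the lens, for example in muscle and glia. The beta and gamma crystallins share a fold built of Greek key motifs and pack densely to refract light. Most gamma crystallins are products of fibre cells and are made strongly in the young lens, while gamma S is also abundant in the adult cortex.

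Values are FPKM, in which fragments are scaled to the exon length of a locus and to the size of the library. They are levels per unit of length and can be set beside each other across genes. Low values at unnamed loci fell on steps, which gave a scale of about 71000000 fragments for the normal cat and 67100000 for the affected cat. The labelled tissue was represented, since 7 of 8 trabecular meshwork genes and all 5 ciliary epithelium genes were listed and passed 1 FPKM. AQP1 was not among the names and was not analysed here.

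Crystallin mRNA was abundant in both libraries, and 7 of the 10 genes stood among the 20 highest loci of each. Together the 10 genes made up 8.91% of all FPKM of the normal library and 7.75% of that of the affected library. The affected share counts CRYAA at a listed 0, which may be a failed estimate. After removal of every locus with a 0 in just 1 of the libraries, the shares were 5.59% for the normal and 8.03% for the affected cat, so the direction turned. The median locus, among those that reached 1 FPKM in a library, had 8.47 FPKM in the normal cat against 8.37 FPKM in the affected cat. The lowest crystallin, CRYGD, was still above that median in both.

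**Figure D1:**
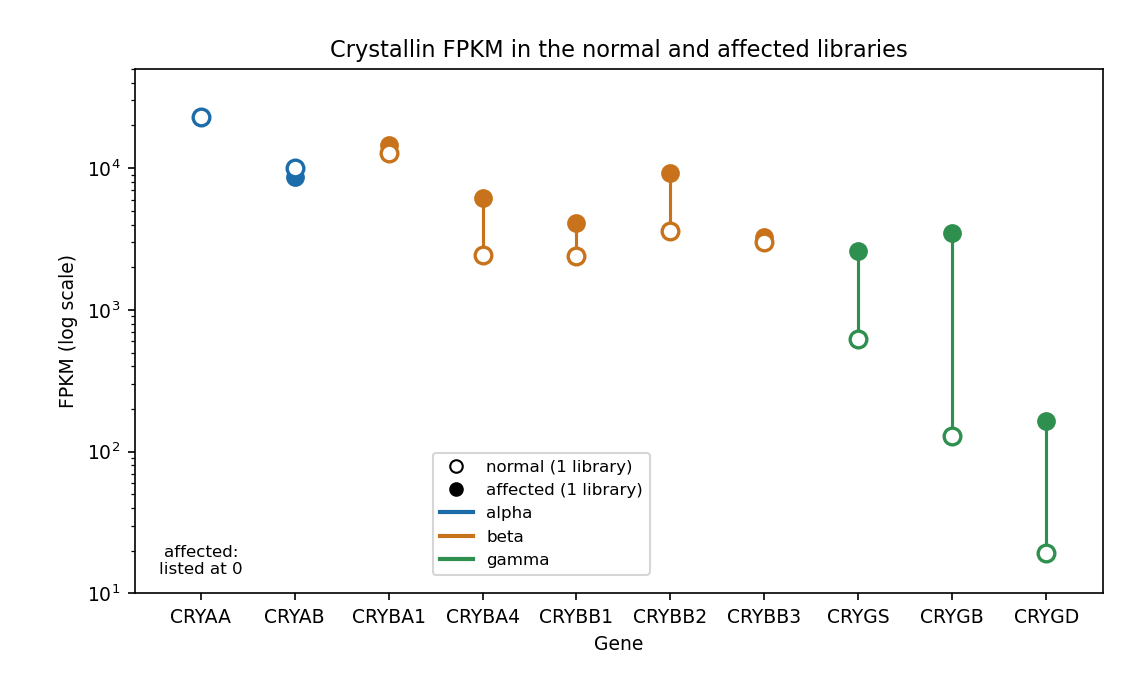
FPKM on a log axis for each of the 10 crystallin genes, with an open circle for the normal and a filled circle for the affected library, and colour for the class. The distance between circles is small for CRYAB, CRYBA1 and CRYBB3 and widest for CRYGB, and CRYAA has no filled circle because it is listed at 0 in the affected library.

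Among the alpha crystallins, CRYAA was the most abundant member in the normal library and had no positive value in the affected one. It had 22978 FPKM in the normal library, where it ranked 2nd among all loci, and it was listed at 0 in the affected library. CRYAA encodes alpha A crystallin, the form largely restricted to the lens. Its locus lies on chromosome C2 of felCat5, the genome build used for these data, from 3049363 to 3052524.

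The listed 0 of CRYAA was not read as absence. At 35 loci a value of 0 in 1 library stood against at least 10 FPKM in the other, and at 2 of them, CRYAA and an unnamed locus, against at least 1000 FPKM. COL1A2, which encodes a chain of type I collagen, the main collagen of sclera, was listed at 0 in the normal and at 447 FPKM in the affected library. The locus of the mitochondrial genome was listed at 0 in both. U2AF1, a splicing factor gene that starts 37095 bases after CRYAA, had 96.9 FPKM in the normal cat against 98.8 FPKM in the affected cat. COL1A2 and U2AF1 were picked as examples after their values were seen. No fold is given for CRYAA.

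CRYAB was nearly level between the libraries. It had 10017 FPKM in the normal cat against 8592 FPKM in the affected cat, a log2 ratio of affected over normal, after addition of 1 FPKM to each, of −0.22. It was the only one of the 9 genes measured above 0 in both libraries that was lower in the affected cat. CRYAB encodes alpha B crystallin, and its locus spans 9915753 to 9919187 on chromosome D1. The row named HSPB2-C11orf52, 737 bases further on, joins the name of the small heat shock protein gene that neighbours CRYAB, and was looked up after the other values were known. It had 29.3 FPKM in the normal cat against 11.9 FPKM in the affected cat, far below CRYAB in both.

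The alpha crystallins belong to the family of small heat shock proteins. Of 7 other genes of that family 5 were listed by themselves and 4 passed 1 FPKM. Each of these 4 differed less than 2-fold between the libraries, unlike the row named HSPB2-C11orf52, and their median log2 ratio was −0.12. HSPB1, a stress-induced chaperone, was the highest, with 220 FPKM in the normal cat against 433 FPKM in the affected cat. HSPB6 had 27.7 and 27.3 FPKM. HSPB8, a partner in protein quality control, had 18.9 and 15.95 FPKM. HSPB7 had 1.10 and 0.811 FPKM. HSPB3 was listed at 0 in the normal and at 0.0494 FPKM in the affected library, both under the minimum.

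The 5 beta crystallins were all higher in the affected library, by amounts that separated them into 3 below and 2 above a 2-fold difference. CRYBA1, which encodes both beta A3 and beta A1 crystallin, was the most abundant, with 12676 FPKM in the normal cat against 14523 FPKM in the affected cat. CRYBB3 had 2988 and 3269 FPKM. These were the smallest beta differences, with log2 ratios of 0.20 and 0.13.

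CRYBB1, which encodes a basic beta crystallin, was intermediate, with 2399.7 FPKM in the normal cat against 4115 FPKM in the affected cat, or 1.72-fold. CRYBB2, the major basic beta crystallin of the adult lens, had 3588 FPKM in the normal cat against 9247 FPKM in the affected cat, or 2.58-fold. CRYBA4, an acidic beta crystallin, had 2428 and 6128 FPKM, or 2.52-fold. The beta genes did not divide by charge, since an acidic and a basic gene stood at each end of the range.

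Nor did the beta genes divide by position. CRYBB3 and CRYBB2 are neighbours on chromosome D3, from 17326420 to 17332840 and from 17340624 to 17349822, with 7783 bases between them. The level of CRYBB2 was 1.20 times that of CRYBB3 in the normal and 2.83 times in the affected library. CRYBB1 (18310994 to 18322191) and CRYBA4 (18326196 to 18336673) lie 961171 bases further on, 4004 bases apart. CRYBA4 was at 1.012 times the level of CRYBB1 in the normal and at 1.49 times in the affected library. Such ratios within a library do not depend on any scaling between the libraries. CRYBA1 stands alone on chromosome E1, from 17100173 to 17105934.

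The 3 gamma crystallins were higher in the affected library by larger factors than any beta crystallin. CRYGS had 619 FPKM in the normal cat against 2618 FPKM in the affected cat, or 4.23-fold. CRYGD had 19.3 and 164 FPKM, or 8.48-fold. CRYGB had 129 FPKM in the normal cat against 3474 FPKM in the affected cat, or 27.0-fold. On the log2 scale these 3 gamma genes ran from 2.08 to 4.74 and the 5 beta genes from 0.13 to 1.37, without overlap. This holds for the members only, since CRYGN, a gamma crystallin outside the 10 genes, had 0.85, inside the beta range.

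CRYGB also differed in its rank among all loci, which was 597 for the normal and 17 for the affected cat. Among the 9 genes above 0 in both libraries its place was 8 for the normal and 6 for the affected cat, while that of CRYBB3 was 4 and 7. The level of CRYGB was 0.208 times that of CRYGS in the normal and 1.33 times in the affected library. Against CRYBA1 it was 0.0102 times in the normal and 0.239 times in the affected library. Among all 16676 loci that reached 1 FPKM in a library, 22 had a higher log2 ratio than CRYGB. Among the 95 loci whose mean reached 1000 FPKM 1 did, the unnamed locus that was listed at 0 in the normal library.

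The gamma crystallin genes resemble each other in sequence, and the loci they were counted on are less certain than those of the beta genes. CRYGB is listed on chromosome C1 from 193350754 to 193389271, a span of 38518 bases. The row that joins CRYGA with an Ensembl identifier has the same span, with 181 FPKM in the normal cat against 1736 FPKM in the affected cat. In a table of RefSeq genes for a later assembly (F.catus_Fca126_mat1.0), CRYGA comes next after CRYGB, and 3 protein-coding genes without a symbol lie between PLEKHM3 and CRYGB. CRYGD is listed 714538 bases beyond the span of CRYGB, from 194103810 to 194106327, and was the only member without a symbol in that table. How fragments were divided among similar gamma genes is not given in the sources used here. CRYGS lies apart from these genes, on chromosome C2 from 83479198 to 83485298.

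**Figure D2:**
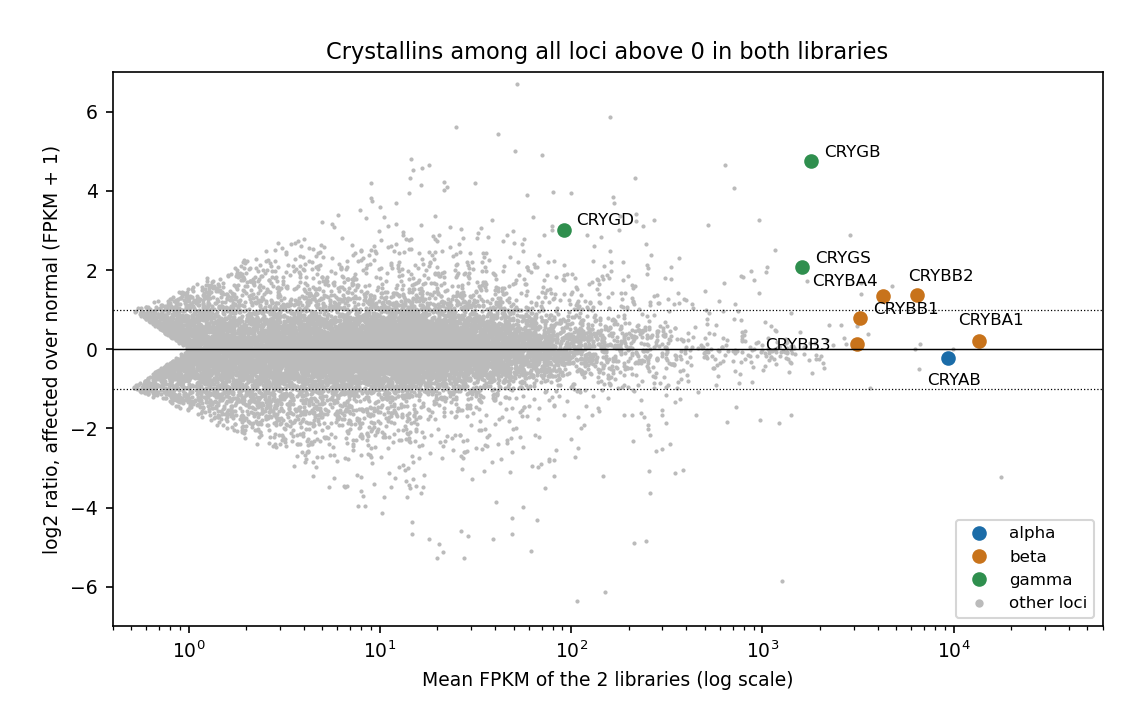
Log2 ratio of affected over normal, with 1 FPKM added, against the mean FPKM on a log axis, for the loci above 0 in both libraries that reached 1 FPKM in a library (grey) and for 9 crystallins (coloured by class); dotted lines mark a 2-fold difference. CRYGB, at a log2 ratio of 4.74, stands above every grey locus whose mean reaches 1000 FPKM, while CRYAB, CRYBA1 and CRYBB3 lie near 0.

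Of the 10 crystallins, 5 were higher in the affected library by 2-fold or more (CRYBA4, CRYBB2, CRYGS, CRYGB and CRYGD), and CRYAA, through its listed 0, counted as lower. Among the 16676 loci that reached 1 FPKM in a library, 8.14% were at least 2-fold higher and 8.75% at least 2-fold lower. All 10 crystallins passed that minimum in the normal library alone. Since crystallins are abundant, the same shares were taken over the 830 loci whose mean reached 100 FPKM, where 15.2% were higher and 7.35% lower. In that set stood 9 of the crystallins, all but CRYGD, and 4 of these were at least 2-fold higher. The median log2 ratio of the 9 crystallins with a value above 0 in both libraries was 1.34, against −0.0047 for all loci and 0.09 for the abundant ones. These shares and medians are descriptions, since the crystallins were chosen with earlier results of these data known.

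Counting error was small beside these differences. With an effective transcript length of 300 bases assumed for every gene, the lowest value, that of CRYGD in the normal library, rested on about 412 fragments, with a counting error of 4.93%. Under the same assumption the log2 ratio of CRYGD was 3.02, with a 95% interval of 2.87 to 3.17. That of CRYBB3, the value nearest to 0, was 0.13 (0.11 to 0.15). These intervals cover counting error only and leave out variation between cats and between dissections.

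The order of the levels differed between the libraries. In the normal library it ran CRYAA, CRYBA1, CRYAB, CRYBB2, CRYBB3, CRYBA4, CRYBB1, CRYGS, CRYGB and CRYGD, over a 1189-fold span, or 656-fold without CRYAA. In the affected library it ran CRYBA1, CRYBB2, CRYAB, CRYBA4, CRYBB1, CRYGB, CRYBB3, CRYGS and CRYGD, over an 88.6-fold span of these 9 genes, with CRYAA listed at 0. Several neighbours were close. CRYBA4 and CRYBB1 were within 1.012-fold in the normal library, CRYGB and CRYBB3 within 1.06-fold and CRYBB2 and CRYAB within 1.08-fold in the affected library. Whether such neighbours differ beyond the spread between cats cannot be told with 1 library each. The wide steps were at the gamma genes, where, in the normal library, CRYGS was 4.81 times CRYGB and CRYGB was 6.66 times CRYGD. In the affected library CRYGS was 15.97 times CRYGD.

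Summed by class, alpha, beta and gamma crystallins made up different parts of the total in the 2 libraries. The beta genes summed to 24080 FPKM in the normal cat against 37282 FPKM in the affected cat, or 1.55-fold. The gamma genes summed to 767 and 6257 FPKM, or 8.16-fold. Gamma crystallins were 1.33% of the crystallin sum in the normal cat and 12% in the affected cat.

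The alpha share rests on CRYAA. With all 10 genes, alpha crystallins were 57.0% of the crystallin sum in the normal cat and 16.5% in the affected cat. Without CRYAA they held 28.7% and 16.5%, beta crystallins 69.1% and 71.5%, and gamma crystallins 2.20% and 12%. CRYAA also decides which library had more crystallin mRNA. The sum of all 10 genes was 57841 FPKM in the normal cat against 52131 FPKM in the affected cat, and without CRYAA it was 34863 and 52131 FPKM, or 1.495-fold higher in the affected library.

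**Figure D3:**
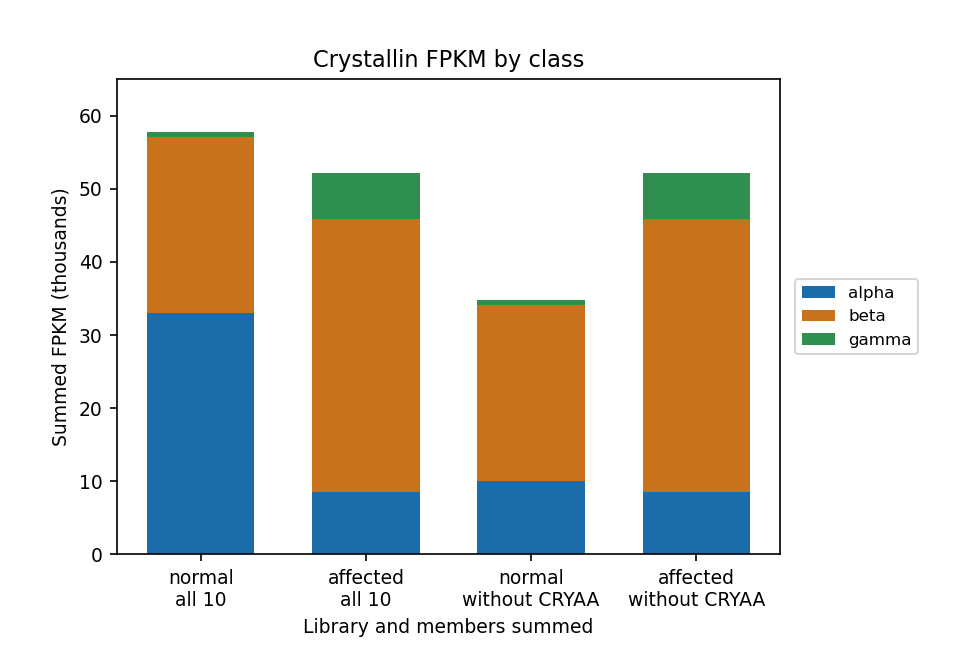
Summed FPKM, in units of 1000, of the alpha, beta and gamma crystallins in each library, for all 10 genes (left pair) and without CRYAA (right pair). Without CRYAA the sum is higher in the affected library, and the gamma part is visibly larger there in both pairs.

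Further rows carried a crystallin name. CRYBA2, an acidic beta crystallin outside the 10 genes, had 1812 FPKM in the normal cat against 4733 FPKM in the affected cat, a log2 ratio of 1.38. The row that joins CRYGA had a log2 ratio of 3.25, inside the range of the gamma members. CRYGN, a gamma crystallin known mainly from the retina, had 94.5 and 172 FPKM. Its log2 ratio of 0.85 was below every gamma member and inside the range of the beta members.

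The remaining names are not those of the abundant lens crystallins. CRYM, a thyroid hormone binding protein, was lower in the affected cat, with 10.7 FPKM in the normal cat against 3.004 FPKM in the affected cat. AIM1 and CRYBG3 encode larger proteins with beta and gamma crystallin domains. CRYZL1, CRYL1, AIM1 and the row that joins CRYBG3 were each within 2-fold between the libraries. CRY1 and CRY2 encode cryptochromes of the circadian clock and not crystallins. CRY2 had 17.3 and 71.0 FPKM and CRY1 had 8.84 and 5.09 FPKM.

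Genes of the lens fibre were mostly higher in the affected library too. Of 11 genes on that list 8 were listed by themselves and all 8 passed 1 FPKM, and 6 of these were at least 2-fold higher. The median log2 ratio was 1.68. LIM2, a fibre cell membrane protein, had 108 FPKM in the normal cat against 315 FPKM in the affected cat. BFSP1 and BFSP2 form the beaded filament, the intermediate filament of fibre cells. BFSP1 had 38.4 and 315 FPKM, and BFSP2 had 41.5 and 142 FPKM. The row that joins MIP, the water channel of fibre membranes, with TIMELESS had 268 and 738 FPKM.

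Summed over the list, lens fibre genes had 323 FPKM in the normal cat against 968 FPKM in the affected cat, or 2.99-fold, between the 1.55-fold of the beta and the 8.16-fold of the gamma crystallins.

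Transcription factors known from the lens were fewer in the table. Of 10 names 5 were listed and 4 passed 1 FPKM, with 1 at least 2-fold higher and none at least 2-fold lower. HSF4, a heat shock factor required in lens fibres, had 22.4 FPKM in the normal cat against 55.1 FPKM in the affected cat. PROX1, which promotes fibre differentiation, had 8.20 and 15.1 FPKM. PAX6, which is also active in ciliary epithelium and retina, had 148 and 211 FPKM. GATA3 had 3.54 and 1.81 FPKM, and SOX2, the listed name under the minimum, was at 0 in both libraries.

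Markers of other ocular tissues differed between the libraries along with the crystallins. All 5 ciliary epithelium genes were higher in the affected library by 2-fold or more, and their sum went from 1964 to 6949 FPKM. Of 7 photoreceptor genes listed by themselves 6 were at least 2-fold higher, with sums of 409 and 1644 FPKM and none listed at 0. Of 8 corneal epithelium genes 6 were at least 2-fold lower and none higher, with sums of 1041 and 162 FPKM. Of 7 trabecular meshwork genes 4 were at least 2-fold higher and 3 at least 2-fold lower, with sums of 876 and 772 FPKM. The part that a different makeup of the dissected pieces has in the crystallin values was not tested. In bulk tissue, a change in the number of cells of a type and a change in RNA per cell cannot be told apart, and with 1 cat per condition neither can be told apart from the disease.

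Genes of skeletal muscle, a tissue in which CRYAB is also abundant, were low. Of 8 genes 7 were listed and 3 passed 1 FPKM, with sums of 30.1 FPKM in the normal cat against 50.9 FPKM in the affected cat. CKM, the muscle creatine kinase, had 8.40 and 33.05 FPKM. MB, which encodes myoglobin, had 0.574 and 0.561 FPKM. DES, an intermediate filament of muscle, had 19.999 and 12.99 FPKM.

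**Figure D4:**
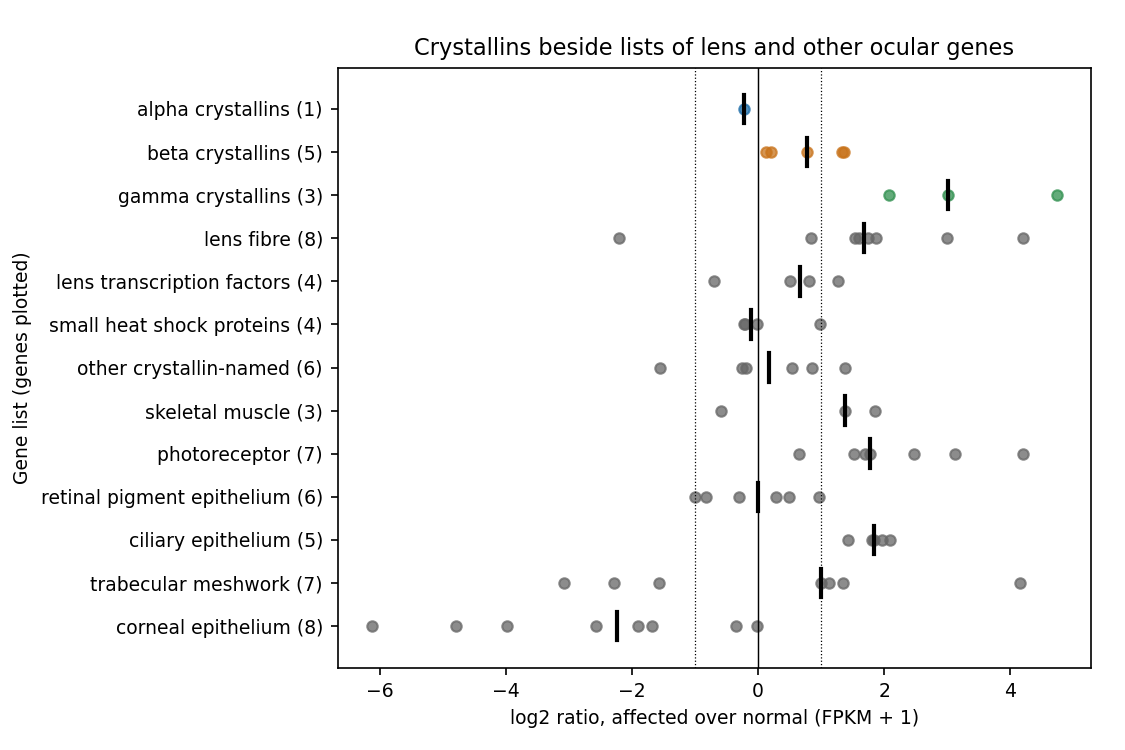
Log2 ratios of affected over normal, with 1 FPKM added, for the crystallins by class and for the genes of each list that passed 1 FPKM; each point is a gene, the black bar is the median, and dotted lines mark a 2-fold difference. All 3 gamma crystallins lie to the right of the 5 beta crystallins, most lens fibre, photoreceptor and ciliary epithelium genes lie to the right of 0, and corneal epithelium genes lie to the left.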

How the data were processed

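Both libraries were prepared with the TruSeq RNA v2 kit. Per the study's methods and the labels, reads were placed on felCat5 by TopHat2 2.0.9, guided by Ensembl gene models. The authors deposited 1 FPKM value per locus and library, estimated with Cufflinks 2.1.1. The scaling between libraries and the treatment of reads shared by similar genes are not given in the sources used here. No count model can be applied to FPKM, and a single library per group allows no p-value.

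Groups came from the disease state in the labels. The 10 crystallins were matched by exact name. Log2 ratios used a pseudocount of 1 FPKM, which understates differences at low values, and loci that reached 1 FPKM in a library. The value of 1 fragment came from unnamed loci, where 96.2% of 1315 low values in the normal and 95.9% of 1080 in the affected library lay within 0.03 of a whole fragment (6% by chance), with 174 bases taken off each locus. Starts were shifted from 0-based to 1-based.

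The crystallins and all lists were chosen with earlier results of these data known. All members are named, with up to 4 of the highest genes of a list, other names that begin with CRY, and the 5 genes nearest to the median crystallin. Values of some single genes that this rule covers are left out of the text. Lists of trabecular meshwork, ciliary and corneal epithelium, photoreceptor and retinal pigment epithelium genes served as markers. RefSeq symbols of a later assembly matched 9 of the 10 members and were used for names and neighbours only. Calculations in pandas 2.3.3 and numpy 2.4.6 (Python 3.11.15; figures with matplotlib 3.10.9) were tested on simulated data. Alternatives were a pseudocount of 0.1, 3 rescalings, other minima, a 4-fold threshold, removal of loci listed at 0 in 1 library, and summed or joined rows. Sequences of the crystallins were not used here.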

Additional observations from a re-analysis of the deposited data

How the results depend on the processing

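The 9 crystallins above 0 in both libraries kept the sign of their log2 ratio under every pseudocount and rescaling tried, the largest move being 0.07. A rescaling moves all genes by nearly the same amount, so this does not test single crystallins. For ratios near 0 the move was large in proportion. With the libraries rescaled to the same sum outside the crystallins, CRYBB3 went from 0.13 to 0.06 and CRYBA1 from 0.20 to 0.13. With a 4-fold threshold 3 crystallins (the gamma genes) were higher instead of 5. Without loci listed at 0 in exactly 1 library, 0 crystallins were lower instead of 1, because only CRYAA had been counted there. Under that removal the crystallin share of the summed FPKM was 5.59% for the normal and 8.03% for the affected cat, and the alpha, beta and gamma shares in the normal library were 28.7%, 69.1% and 2.20%. Over all loci, 815 were at least 2-fold higher and 691 lower where the mean reached 5 FPKM, and 126 were higher and 61 lower where it reached 100 FPKM, a minimum added after the data were seen, since fewer loci enter under both. Over the same 16676 loci as in the report, 280 and 298 passed the stricter 4-fold threshold. The median of the retinal pigment epithelium list changed from −0.0096 to 0.39 where the mean reached 5 FPKM, since fewer of its genes enter. None of the names of the 10 crystallins was repeated or joined with another, so summed or joined rows changed none of their values. No paired analysis was possible because there is a single library in each group. The counting error that depth allows was at most 4.93% for any crystallin value above 0, at an assumed effective length of 300 bases.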

Other observations

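The median position of the 9 crystallins measured above 0 in both libraries was 11.25 for the normal and 12.01 for the affected cat on the scale of log2(FPKM + 1). Among 745 other named loci whose mean reached 100 FPKM, TPT1, a translationally controlled protein, lay nearest, at a distance of 0.15, with 2512 FPKM in the normal cat against 3740 FPKM in the affected cat. It was followed by FTL, the ferritin light chain, at 0.46, and by CRYBA2 at 0.47. RPL17, a ribosomal protein, lay at 0.50, and a gene with an Ensembl identifier only at 0.55. With 2 libraries this likeness rests on 2 values per gene.

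Retinal pigment epithelium genes were split in direction, unlike the photoreceptor genes, although their sum was also higher in the affected library, at 772 and 1308 FPKM. All 6 were listed, 3 were higher and 3 lower in the affected library, and 1 reached a 2-fold difference after addition of 1 FPKM. BEST1, with 5.45 and 2.64 FPKM, passed 2-fold only without that addition. TTR, a carrier of thyroid hormone and retinol, had 505 FPKM in the normal cat against 991 FPKM in the affected cat, while RPE65, the isomerase of the visual cycle, had 53.2 and 26.1 FPKM.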
